A study of Mus musculus with 25 samples.

Results

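The enzymes described here remove reactive aldehydes and dicarbonyls from the mouse heart. They are 10 genes of the 35969 whose transcripts could be summed: the aldehyde dehydrogenases Aldh2, Aldh1a1, Aldh3a2, Aldh7a1 and Aldh9a1, the aldo-keto reductases Akr1b3 and Akr1a1, the alcohol dehydrogenases Adh5 and Adh1, and the glyoxalase Glo1. They were chosen by name and function, with earlier results of these data known. A gene's level is the sum over all of its annotated transcripts. Poly(A) RNA of left ventricular tissue was sequenced from 25 male mice, 5 in each of 5 groups. Wild type (WT) littermates and mice heterozygous for the glutathione peroxidase 4 gene (GPx4+/-, a constitutive deletion, backcrossed to C57BL6/J) received normal chow (CNTL) or a diet high in fat and sucrose (HFHS) from an age of 8 to 10 weeks, over 16 weeks. CNTL held 6% of its energy as fat, and HFHS held 35.5% as fat and 38% as sucrose. The fifth group was WT on HFHS with 80 mM carnosine in the drinking water from week 7 onward (WT HFHS + Carnosine). The corresponding GPx4+/- group was not analysed here. All mice had fasted before death and were then given a bolus of dextrose or of saline, and the labels do not say which mouse received which. Each group is of separate animals, and replicate numbers mark different mice.

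Reactive aldehydes arise when membrane lipids are oxidised, when sugars are split and when amines are broken down, and they bind to proteins and DNA. Aldehyde dehydrogenases oxidise them to acids with NAD or NADP, aldo-keto reductases and alcohol dehydrogenases interconvert them with alcohols, and the glyoxalases turn methylglyoxal, a by-product of glycolysis, into lactate by way of a glutathione adduct. Glutathione peroxidase 4 reduces lipid hydroperoxides in membranes, the step before such aldehydes form, and carnosine is a histidine dipeptide that binds aldehydes directly. The comparisons asked whether diet, loss of a Gpx4 allele or carnosine went with other levels of the mRNAs for the enzymes that take the aldehydes away.

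Levels are given as TPM, a share of all transcripts that is already corrected for transcript length, after scaling of the libraries to a common median. Between 11652 and 12305 genes per library reached 1 TPM. TPM keep no read depth, so no counting error can be given. Gpx4, the targeted gene, lay at 250.3 to 382.4 scaled TPM in the 10 GPx4+/- mice and at 590.0 to 776.9 in the 15 WT mice, with a log2 fold change of -1.08 (SE 0.061, limma adjusted p = 1.59e-09 over both diets). The summed level of 5 atrial cardiomyocyte markers (Nppa, Myl7, Myl4, Sln and Bmp10) was above 500 scaled TPM in 5 mice, at 579.6 to 7339, against 30.6 to 275.8 in the other 20, although the tissue was left ventricle. These were WT CNTL replicate 3, GPx4+/- CNTL replicates 1 and 2, GPx4+/- HFHS replicate 4 and replicate 2 of the carnosine group. In GPx4+/- CNTL replicate 2 the 8 hepatocyte markers also summed to 1391 scaled TPM, of which albumin gave 735.6, against 3.14 to 128.3 in the other 24 mice.

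On HFHS, the level of Akr1b3 (aldose reductase) was 15.8% higher and that of Glo1 7.16% higher than on CNTL over both genotypes. Aldh9a1, which oxidises trimethylaminobutyraldehyde in carnitine synthesis, was 22.0% lower, and Aldh7a1, which oxidises lipid aldehydes, betaine aldehyde and a lysine breakdown product, was 10.5% lower. The percentages are of sums over coding and non-coding transcripts, and the main coding transcripts of Aldh9a1 and Glo1 did not pass alone. These 4 of the 10 enzymes passed an adjusted p of 0.05 in limma, 2 in each direction, where 8.33% of the 11983 genes tested did, and those of Akr1b3 and Glo1 were lost with TPM as deposited. The other 6 enzymes, among them Aldh2, the main mitochondrial acetaldehyde and 4-hydroxynonenal dehydrogenase, did not pass. Genotype and carnosine gave no call among the 10, where at most 7 of all genes were called. In bulk tissue, fewer cells of a type and less RNA per cell cannot be told apart.

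Sequences are shown for the gene that fell most, Aldh9a1, because its summed level holds a coding and a non-coding transcript that part at 1 splice site. The gene lies on the plus strand of GRCm38 at chr1:167349991-167368532. The coding transcript Aldh9a1-201 has 11 exons and 2835 bases, and the retained intron transcript Aldh9a1-203 has 4 exons and 600 bases. The 30 bases in lower case are held by both transcripts and end exon 4 of Aldh9a1-201. The capitals mark what follows: exon 5 from position 167356530 in Aldh9a1-201, and in Aldh9a1-203 the first 84 bases of the intron at chr1:167355807-167355890, through which its last exon runs on to the end of the transcript.
Aldh9a1-201: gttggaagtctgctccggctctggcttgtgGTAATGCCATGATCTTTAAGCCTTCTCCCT
Aldh9a1-203: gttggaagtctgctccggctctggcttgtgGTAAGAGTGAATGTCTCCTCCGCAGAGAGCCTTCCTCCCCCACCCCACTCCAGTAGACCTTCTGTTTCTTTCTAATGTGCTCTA

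The upstream 250 bases of Aldh9a1 (chr1:167349741-167349990, plus strand) and of Glo1 (chr17:30612660-30612909, minus strand), a gene that fell and one that rose, are given 5′ to 3′ from RefSeq on GRCm38.p6. The Aldh9a1 window lies before Aldh9a1-201. The Glo1 window lies before the coding transcript Glo1-202 and others, not before Glo1-201, which gives the largest share of the gene's level. RefSeq windows were matched for 7 of the 10 genes. Capitals mark matches to the motifs searched on both strands. These were the antioxidant response element core TGACNNNGC, present in 10.2% of all 32851 promoter windows, the E-box CACGTG in 6.02%, the nuclear receptor site AGGTCA in 14.0%, the GC box GGGCGG in 32.7% and CCAAT in 33.8%. The Aldh9a1 window held 1 TGACNNNGC and 1 CCAAT. The Glo1 window held 3 GGGCGG, 2 of which overlap, and 1 CCAAT. A match of letters is a description and says nothing of binding.
Aldh9a1 promoter: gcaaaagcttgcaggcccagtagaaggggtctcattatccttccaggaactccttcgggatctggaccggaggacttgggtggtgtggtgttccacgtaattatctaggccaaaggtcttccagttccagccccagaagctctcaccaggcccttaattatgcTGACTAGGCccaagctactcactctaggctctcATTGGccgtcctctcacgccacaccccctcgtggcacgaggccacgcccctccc
Glo1 promoter: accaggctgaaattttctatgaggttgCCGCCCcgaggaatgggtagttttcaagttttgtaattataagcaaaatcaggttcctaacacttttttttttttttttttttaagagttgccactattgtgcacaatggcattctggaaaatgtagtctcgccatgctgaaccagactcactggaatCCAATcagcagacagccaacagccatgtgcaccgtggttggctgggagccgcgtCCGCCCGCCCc

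Over all 25 mice, Aldh2 had the highest level of the 10 enzymes, at 269.8 ± 34.5 scaled TPM (SD, n = 25), followed by Akr1b3 at 200.1 ± 17.7 and Akr1a1 at 147.3 ± 7.54. Akr1a1 is the NADPH-dependent aldehyde reductase. Glo1 stood at 70.9 ± 3.73 and Adh5, which also acts on S-hydroxymethylglutathione and so clears formaldehyde, at 56.2 ± 3.47. Next came 4 enzymes of similar level: Adh1 at 25.5 ± 8.98, Aldh1a1, the cytosolic retinal dehydrogenase, at 22.3 ± 7.36, Aldh9a1 at 21.8 ± 3.83 and Aldh7a1 at 20.6 ± 1.83. Aldh3a2, the fatty aldehyde dehydrogenase, was lowest at 13.7 ± 0.862. From Aldh2 down to Adh1 each enzyme exceeded the next in all 25 mice. Adh1 exceeded Aldh1a1 in 15 mice, Aldh1a1 exceeded Aldh9a1 in 14 and Aldh9a1 exceeded Aldh7a1 in 16, so those 4 had no fixed order. Aldh7a1 was above Aldh3a2 in all 25.

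The summed level of the 10 enzymes was 839 ± 39.6 scaled TPM on CNTL and 873 ± 45.0 on HFHS in WT, 833 ± 28.5 on CNTL and 846 ± 56.8 on HFHS in GPx4+/-, and 850 ± 78.0 in WT given carnosine (SD, n = 5 each). Aldh2 alone made up 27.7 to 38.5% of it. The 5 groups overlapped in this sum, and it was not tested. In GPx4+/- the order of the diets turned with TPM as deposited, at 868.9 on CNTL and 818.9 on HFHS.

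The enzymes differed in how much mice of the same group varied. The within-group SD of the log2 level was 0.049 for Glo1, smaller than in all but 0.292% of the genes tested, and 0.061 for Akr1a1, smaller than in all but 1.49%. Akr1b3 followed at 0.080. The median gene had 0.15. Adh1 and Aldh1a1 were at the other end, with 0.57 and 0.46, and 97.3% and 95.8% of genes varied less. Adh1 ranged 7.39-fold from the lowest to the highest mouse and Aldh1a1 3.09-fold, while Glo1 and Akr1a1 each ranged 1.23-fold.

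**Figure D1:**
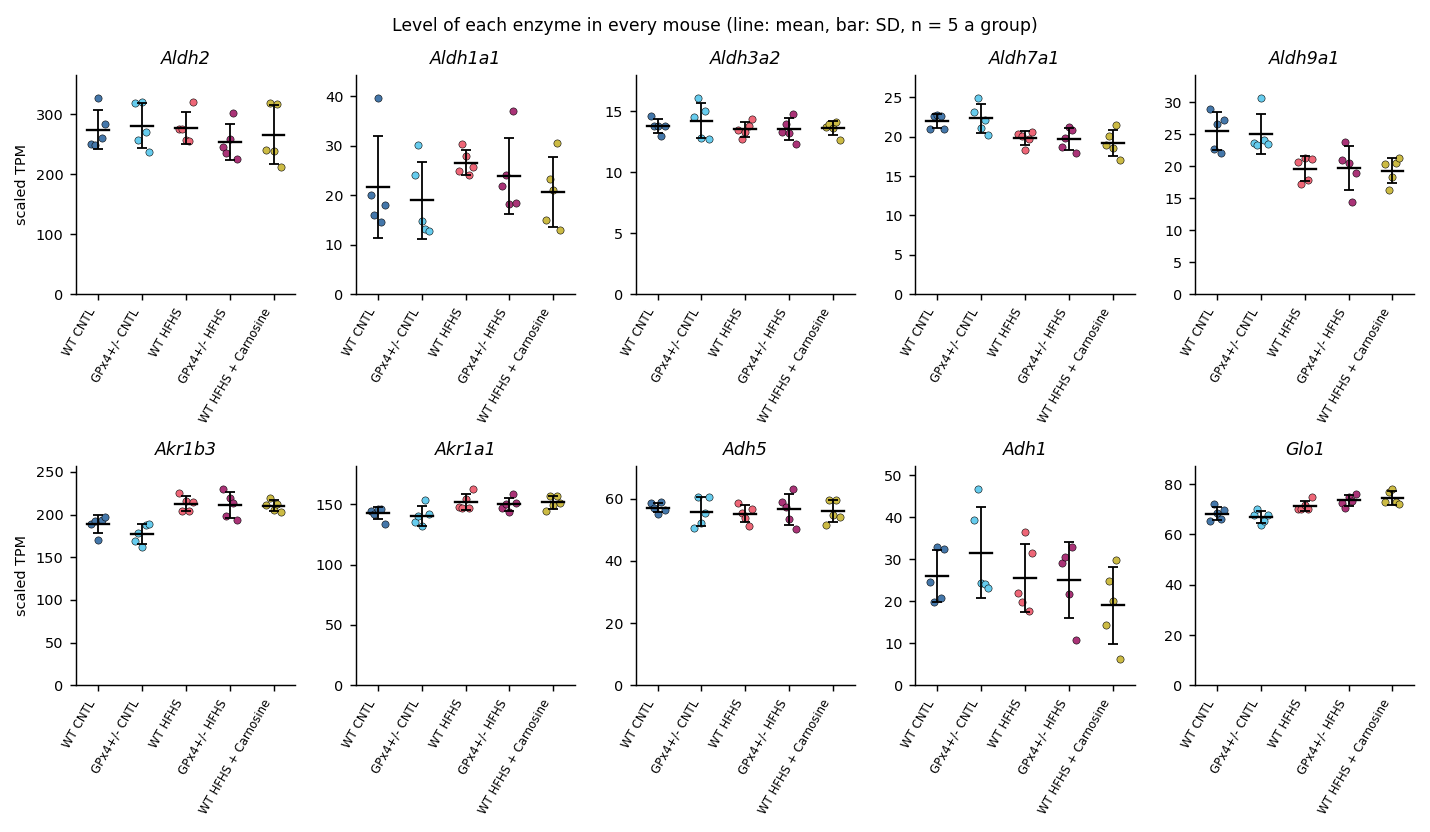
Level of each of the 10 enzymes in scaled TPM (linear axes), 1 point per mouse, in the 5 groups of 5, with bars for the group mean and SD. Akr1b3 lies at 162.1 to 197.0 in the CNTL mice and at 193.5 to 229.6 in the HFHS mice without carnosine, while Adh1 spans 6.32 to 46.7.

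Akr1b3, on the minus strand of GRCm38 at chr6:34302434-34317478, encodes aldose reductase, which reduces glucose to sorbitol and also reduces 4-hydroxynonenal and its glutathione conjugate. In WT its level was 189.0, 192.4, 170.7, 193.8 and 197.0 scaled TPM on CNTL and 225.1, 203.9, 216.5, 204.4 and 214.7 on HFHS. The GPx4+/- mice had 169.4, 178.8, 162.1, 188.1 and 189.6 on CNTL and 229.6, 197.9, 219.9, 213.6 and 193.5 on HFHS. In each genotype every HFHS mouse was above every CNTL mouse. The mean rose from 183.1 ± 12.0 to 211.9 ± 11.7 (SD, n = 10 each), a log2 fold change of 0.21 (SE 0.040, limma adjusted p = 0.00266). Within GPx4+/- the log2 fold change was 0.25 (SE 0.056, limma adjusted p = 0.0202), and Akr1b3 was the 1 enzyme of the 10 called there, where 3.34% of genes were. That call was lost when GPx4+/- CNTL replicate 1 or 3, or GPx4+/- HFHS replicate 1 or 3, was left out, at adjusted p = 0.0584, 0.0550, 0.0622 and 0.0512, and with TPM as deposited, at a log2 fold change of 0.14 (adjusted p = 0.291). In WT it was 0.18 (adjusted p = 0.124), and none of the 10 was called there, where 1.19% of genes were. Almost all of the level came from the coding transcript Akr1b3-201, at 198.9 scaled TPM. The genome holds 4 pseudogene copies of it of at least 99% identity, so the division of reads among them is uncertain. The 3 copies listed, Gm6736, Gm12138 and Gm6644, stood at 0.463, 0.098 and 0.027 scaled TPM.

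Glo1, on chromosome 17, catalyses the first step in the removal of methylglyoxal. In WT it lay at 65.5, 72.1, 68.4, 66.1 and 69.6 scaled TPM on CNTL and at 70.2, 70.3, 71.7, 69.9 and 75.0 on HFHS. The values in GPx4+/- were 67.7, 70.0, 63.6, 65.4 and 67.8 on CNTL and 72.7, 70.6, 75.0, 73.5 and 76.0 on HFHS. The groups overlapped in WT through the second CNTL mouse and did not overlap in GPx4+/-. The mean over both genotypes rose from 67.6 ± 2.53 to 72.5 ± 2.28 (SD, n = 10 each), a log2 fold change of 0.10 (SE 0.027, limma adjusted p = 0.0250). Glo1 was not called with TPM as deposited (0.05, adjusted p = 0.606) or under quantile normalization (0.08, adjusted p = 0.0586). With median scaling the log2 fold change was 0.14 in GPx4+/- (adjusted p = 0.0532) and 0.06 in WT (adjusted p = 0.416). Glo1 was divided between Glo1-201, a transcript annotated as a target of nonsense-mediated decay, at 32.9 scaled TPM, and the coding Glo1-202 at 30.6. Neither passed alone, with log2 fold changes of 0.10 (adjusted p = 0.135) and 0.03 (adjusted p = 0.795).

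Aldh9a1 acts on aldehydes derived from amines. In WT its level was 29.0, 22.7, 26.5, 22.0 and 27.2 scaled TPM on CNTL and 20.6, 17.1, 21.3, 17.8 and 21.2 on HFHS. GPx4+/- mice had 23.7, 23.3, 30.6, 24.1 and 23.4 on CNTL and 21.0, 23.8, 20.5, 14.3 and 18.9 on HFHS. Every HFHS mouse was below every CNTL mouse in WT, and 1 GPx4+/- HFHS mouse reached into the CNTL range. The mean fell from 25.2 ± 2.91 to 19.7 ± 2.67 (SD, n = 10 each), a log2 fold change of -0.36 (SE 0.081, limma adjusted p = 0.00965). The log2 fold change was -0.37 in WT (adjusted p = 0.114) and -0.35 in GPx4+/- (adjusted p = 0.103), so the call rested on the genotypes together. Aldh9a1 kept its call without each mouse in turn, at log2 fold changes of -0.39 to -0.30.

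The coding and retained intron transcripts of Aldh9a1, whose parting sequences are printed above, had lower means on HFHS and neither passed alone, where 3.05% of the 23317 transcripts tested over both genotypes were called. Aldh9a1-201 was at 17.3, 15.7, 14.8, 14.6 and 16.7 scaled TPM in WT CNTL and at 13.5, 11.8, 13.8, 12.4 and 14.8 in WT HFHS. Aldh9a1-203 was at 9.91, 5.69, 10.7, 5.39 and 9.19 in WT CNTL and at 5.58, 4.45, 6.76, 4.09 and 5.24 in WT HFHS. The groups overlapped slightly for each transcript. Over both genotypes the log2 fold change was -0.20 (SE 0.060, limma adjusted p = 0.0801) for Aldh9a1-201 and -0.52 (SE 0.14, adjusted p = 0.0551) for Aldh9a1-203. A further retained intron transcript, Aldh9a1-202, averaged 1.05 scaled TPM, with group means of 1.92 in GPx4+/- CNTL, where replicate 3 was at 3.67, and of 0.522 to 1.04 in the other 4 groups. It reached the minimum mean of 1 through that group, so no test is given for it. The share of Aldh9a1-201 in the gene's level was 59.4 ± 3.41% in GPx4+/- CNTL and 68.1 ± 4.74% in GPx4+/- HFHS (SD, n = 5 each). The difference of 8.64 percentage points had p = 0.00794 in a two-sided exact permutation test, the smallest possible with 5 mice a group, and adjusted p = 0.381 over the 48 shares compared. No leading transcript's share passed adjustment, for 8 of the 10 enzymes in 6 comparisons, and 3 of the 48 had an unadjusted p under 0.05.

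**Figure D2:**
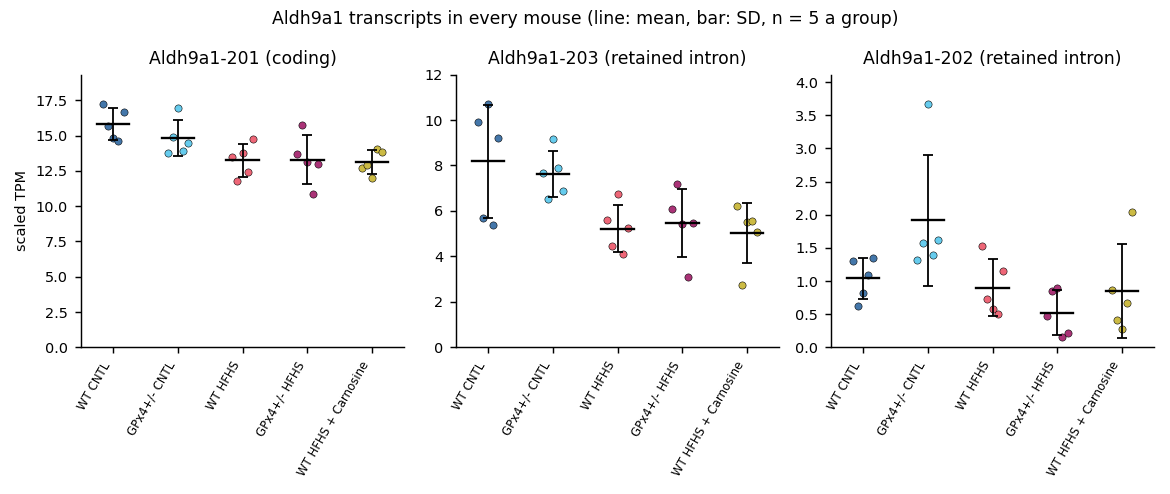
Level of the Aldh9a1 transcripts 201, 203 and 202 in scaled TPM, 1 point per mouse in the 5 groups of 5, with bars for the group mean and SD. The coding transcript 201 averages 15.8 in WT CNTL and 13.3 in WT HFHS, and the retained intron transcript 203 averages 8.18 and 5.22.

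Aldh7a1, also called antiquitin, lies on GRCm38 at chr18:56509687-56572951. In WT it was at 21.0, 22.7, 22.8, 22.6 and 21.0 scaled TPM on CNTL and at 20.4, 20.1, 18.3, 19.7 and 20.7 on HFHS. In GPx4+/- it was at 23.2, 24.9, 21.1, 22.2 and 20.2 on CNTL and at 18.7, 19.9, 21.2, 20.9 and 17.9 on HFHS. The WT groups did not overlap, the GPx4+/- groups did, and all 10 HFHS mice lay below the CNTL median. The mean fell from 22.2 ± 1.38 to 19.8 ± 1.13 (SD, n = 10 each), a log2 fold change of -0.16 (SE 0.041, limma adjusted p = 0.0205). Within a genotype it was -0.15 in WT (adjusted p = 0.216) and -0.17 in GPx4+/- (adjusted p = 0.113). Without the 5 mice of high atrial markers, an alternative chosen after seeing the data, Aldh7a1 was at -0.13 (adjusted p = 0.0818) and no longer called.

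Akr1a1, the other reductase, did not pass for diet. In WT it was at 144.2, 141.9, 146.1, 146.1 and 134.1 scaled TPM on CNTL and at 148.1, 146.9, 154.1, 147.2 and 162.4 on HFHS, without overlap. In GPx4+/- it was at 135.1, 140.5, 131.8, 153.6 and 142.0 on CNTL and at 147.0, 150.1, 143.4, 158.2 and 151.1 on HFHS, where CNTL replicate 4, at 153.6, overlapped with HFHS. The log2 fold change over both genotypes was 0.09 (SE 0.032, limma adjusted p = 0.0759). Without GPx4+/- CNTL replicate 4 it was 0.11 (adjusted p = 0.0318). All 10 HFHS mice were above the CNTL median.

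Aldh2, Aldh3a2 and Adh5 did not pass for diet, with log2 fold changes over both genotypes of -0.06 (adjusted p = 0.626), -0.05 (adjusted p = 0.543) and -0.02 (adjusted p = 0.851). Aldh2 was at 247.9 to 326.6 scaled TPM in WT CNTL, 255.5 to 320.6 in WT HFHS, 236.9 to 320.8 in GPx4+/- CNTL and 225.4 to 302.1 in GPx4+/- HFHS. Its groups overlapped over most of their range. Its level was spread over 3 main coding transcripts, of which Aldh2-202 gave 41.6%. Adh5 stayed within 50.2 to 63.0 scaled TPM and Aldh3a2 within 12.3 to 16.1 over all 25 mice.

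Groups that did not overlap between diets were Akr1b3 and Akr1a1, higher, and Aldh7a1 and Aldh9a1, lower, in WT (4 of 10 enzymes, against 4.51% of all genes), and Akr1b3 and Glo1, higher, in GPx4+/- (2 of 10, against 4.47%). The diet by genotype interaction was called for none of the 11983 genes (0%, with 856 at an unadjusted p under 0.05), and its smallest adjusted p among the 10 enzymes was 0.775 in limma. For the 8 enzymes other than Aldh1a1 and Adh1, the 95% intervals of the interaction reached from -0.45 to 0.36 on the log2 scale, which does not show that the genotypes responded alike. The 10 enzymes' median log2 fold change over both genotypes was -0.03, against -0.0024 over all genes.

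**Figure D3:**
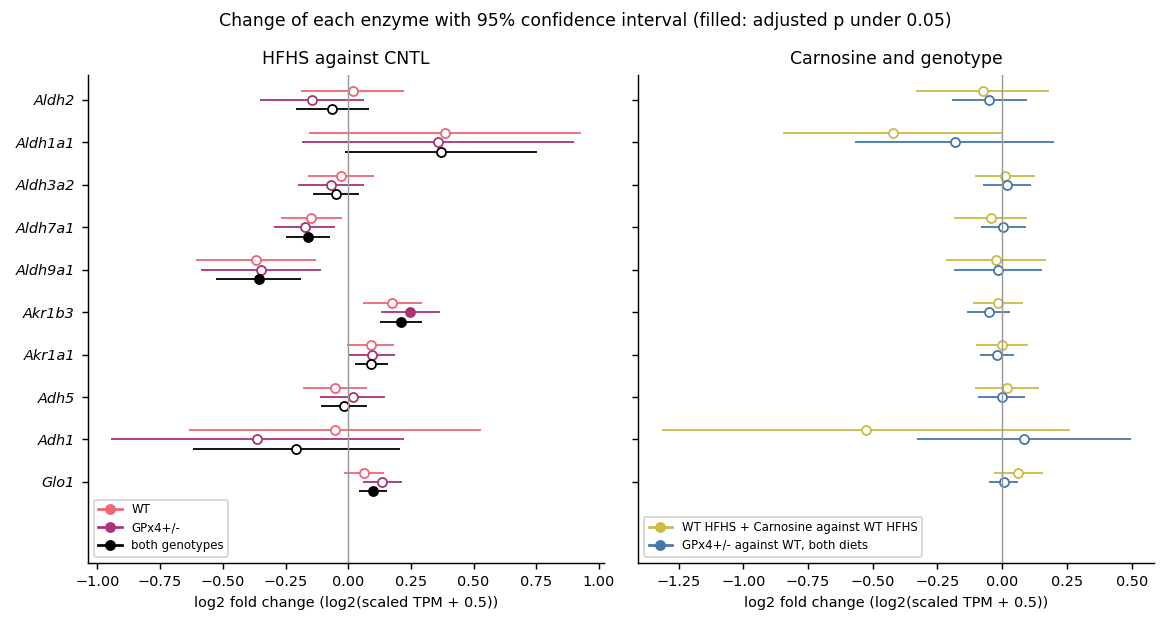
Log2 fold change of each of the 10 enzymes with its 95% interval from limma, for HFHS against CNTL in WT, GPx4+/- and both (left) and for carnosine and genotype (right), where 0 means no change. Over both genotypes the diet intervals of Akr1b3 (0.21) and Glo1 (0.10) lie above 0 and those of Aldh9a1 (-0.36) and Aldh7a1 (-0.16) below it; that of Akr1a1 (0.03 to 0.16), which was not called, also lies above 0, while Aldh1a1 and Adh1 have the widest intervals.

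How far these calls depended on the scaling of libraries differed by gene. With TPM as deposited, the median of all genes lay at -0.10 on the log2 scale for diet in GPx4+/- and -0.05 over both genotypes. The split of calls moved with it, from 261 higher and 139 lower to 37 and 387 in GPx4+/-, and from 561 higher and 437 lower to 144 and 574 over both. On that scale, over both genotypes, Aldh9a1 and Aldh7a1 were still called, while Akr1b3 was at 0.16 (limma adjusted p = 0.0830) and Glo1, as given above, was lost. Within GPx4+/-, TPM as deposited gave a call for Aldh9a1 (-0.45, adjusted p = 0.0253) and none for Akr1b3 (0.14, adjusted p = 0.291). The direction of the 4 enzymes called over both genotypes did not change there under any scaling.

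Some cell type markers moved with diet as well. Of 7 cardiomyocyte markers, Myh6 fell (log2 fold change -0.17, SE 0.049, limma adjusted p = 0.0314), and the 7 summed to 41482 to 48073 scaled TPM in the 10 CNTL mice and 39106 to 45701 in the 10 HFHS mice. Of 6 fibroblast markers, Lum (0.55, SE 0.16, adjusted p = 0.0395) and Pdgfra (0.29, SE 0.088, adjusted p = 0.0472) rose, and the 6 summed to 263.0 to 496.3 on CNTL and 321.4 to 604.6 on HFHS. These 3 marker calls fell to 0 without a filter on low values, and to 0 also without WT CNTL replicate 5, GPx4+/- CNTL replicate 4, WT HFHS replicate 4 or GPx4+/- HFHS replicate 5. More markers were called with array weights in the fit, and more without the mice of high atrial markers. The ranges overlapped, the lowest fibroblast marker by mean level, Tcf21, stood at 5.03 scaled TPM, and the part of these shifts in the enzymes' changes was not tested. None of the tested markers of endothelial cells, smooth muscle cells, macrophages, erythroid cells, adipocytes, epicardium, hepatocytes or atrial cardiomyocytes was called for diet over both genotypes.

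Aldh1a1, which oxidises retinal to retinoic acid as well as lipid aldehydes, lies on chromosome 19. In WT it was at 20.0, 15.9, 39.6, 14.6 and 17.9 scaled TPM on CNTL and at 24.8, 30.2, 28.0, 24.0 and 25.8 on HFHS. In GPx4+/- it was at 24.1, 30.1, 14.7, 13.1 and 12.8 on CNTL and at 21.8, 24.1, 18.1, 36.9 and 18.3 on HFHS. In the CNTL mice the highest value of WT and both values above 20 of GPx4+/- belonged to mice of high atrial markers. The log2 fold change over both genotypes was 0.37 (SE 0.18, limma adjusted p = 0.221), with a 95% interval of -0.01 to 0.75.

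Without the 5 mice of high atrial markers, Aldh1a1 lay at 14.6 to 20.0 scaled TPM in 4 WT CNTL mice and 24.0 to 30.2 in 5 WT HFHS mice, and at 12.8 to 14.7 in 3 GPx4+/- CNTL mice and 18.1 to 24.1 in 4 GPx4+/- HFHS mice. The diet groups then did not overlap in either genotype. Separation is more frequent with so few mice, and the share of all genes without overlap was not counted for these reduced groups. The log2 fold change became 0.62 in WT (limma adjusted p = 0.00935), 0.58 in GPx4+/- (adjusted p = 0.0220) and 0.60 over both (adjusted p = 0.000432). In these fits 1.72%, 2.28% and 7.36% of all genes were called. The mice were left out after seeing the data, by a marker sum that does not include Aldh1a1. Those in WT CNTL (39.6), GPx4+/- CNTL (24.1 and 30.1) and GPx4+/- HFHS (36.9) nevertheless held the highest Aldh1a1 levels of their groups. Leaving them out lowered the CNTL level more than the HFHS level, so these calls are not independent of the Aldh1a1 values. More cell type markers were also called over both genotypes in that fit. Leaving out any single mouse did not give the call, with adjusted p = 0.0586 to 0.347 over both genotypes. In the same 16 mice Aldh9a1 (-0.32, adjusted p = 0.0240), Glo1 (0.11, adjusted p = 0.0432) and Akr1b3 (0.18, adjusted p = 0.0251) kept their calls over both genotypes, and Akr1b3 in GPx4+/- (0.22, adjusted p = 0.0950) did not.

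Adh1, a class I alcohol dehydrogenase that is abundant in liver, had the widest spread. It was at 24.6, 19.9, 32.9, 20.7 and 32.4 scaled TPM in WT CNTL and at 22.1, 19.9, 36.6, 17.7 and 31.5 in WT HFHS. In GPx4+/- it was at 39.5, 46.7, 24.4, 24.2 and 23.1 on CNTL and at 29.2, 30.6, 21.7, 33.0 and 10.9 on HFHS. The highest value, 46.7, was that of GPx4+/- CNTL replicate 2, the mouse of high hepatocyte markers, and the next highest, 39.5, was in the mouse of the highest atrial marker sum, whose hepatocyte sum was 17.3. The groups overlapped, and the diet change over both genotypes was -0.21 (limma adjusted p = 0.564). The part of the marker RNA in the Aldh1a1 and Adh1 levels was not tested beyond leaving those mice out.

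**Figure D4:**
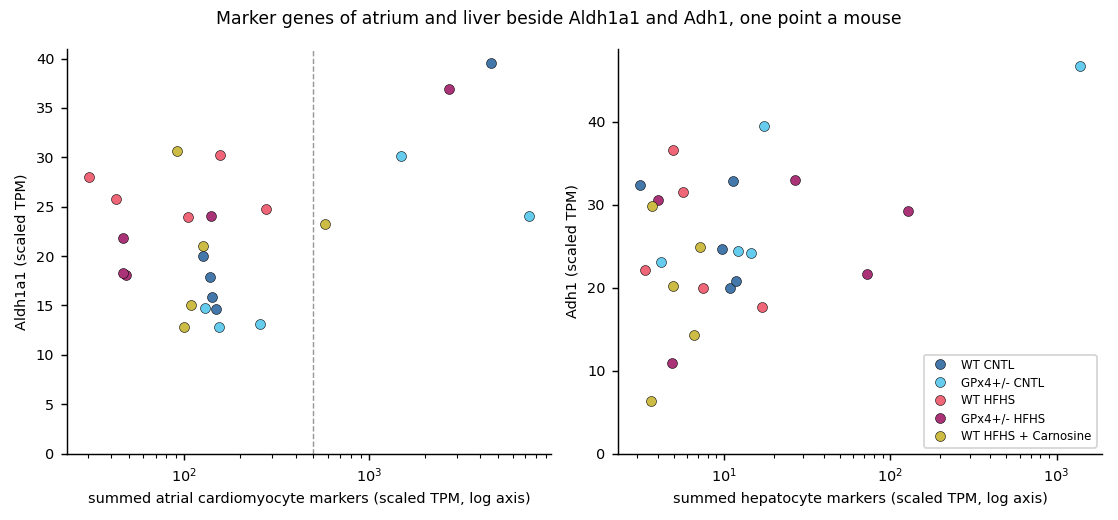
Left, Aldh1a1 level against the summed level of 5 atrial cardiomyocyte markers, and right, Adh1 level against the summed level of 8 hepatocyte markers, all in scaled TPM with the marker sums on a log axis and 1 point per mouse. The dashed line marks an atrial sum of 500, above which lie 5 mice, and the mouse with the highest hepatocyte sum, 1391, has the highest Adh1 level, 46.7.

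For genotype, none of the 10 enzymes was called. GPx4+/- and WT differed in 6 genes on CNTL (0.0501%), in 6 on HFHS (0.0501%) and in 7 over both diets (0.0584%), and the smallest adjusted p among the 10 enzymes over the 3 comparisons was 0.837. No enzyme's groups were without overlap on either diet, where 0.926% and 0.726% of genes were. The 95% intervals over both diets, for the 8 enzymes other than Aldh1a1 and Adh1, reached from -0.20 to 0.15 on the log2 scale.

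Carnosine in WT on HFHS gave no call among the 10 enzymes or among all genes (0%, with 504 genes at an unadjusted p under 0.05), and no enzyme's groups were without overlap (0.609% of genes were). Aldh1a1 came nearest: it was at 15.0, 23.3, 21.0, 30.6 and 12.8 scaled TPM with carnosine, against 24.0 to 30.2 without. In 4 of the 5 carnosine mice it was below every WT HFHS mouse. The log2 fold change was -0.42 (SE 0.19, 95% interval -0.85 to 0.00, limma adjusted p = 0.947). Adh1 was at 14.3, 24.8, 20.1, 29.8 and 6.32 with carnosine, a log2 fold change of -0.53 (SE 0.36, 95% interval -1.32 to 0.26, adjusted p = 0.947). The last carnosine mouse had the lowest level of its group for 7 of the 10 enzymes, all but Aldh9a1, Akr1a1 and Adh5. Without that mouse, WT HFHS + Carnosine replicate 5, the log2 fold change was -0.27 for Aldh1a1 and -0.19 for Adh1, and over all fits without 1 mouse it ranged from -0.58 to -0.27 and from -0.73 to -0.19. For the other 8 enzymes the intervals reached from -0.33 to 0.18.

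Against WT CNTL, the WT HFHS + Carnosine mice had no call among the 10 enzymes, where 1.18% of genes were called (81 higher and 60 lower, or 23 and 52 with TPM as deposited), and 5 enzymes, like 1632 of the 11983 genes, had an unadjusted p under 0.05. This comparison shares its control mice with that of diet in WT, so the values are given side by side only. Akr1b3 was at 211.4, 219.3, 205.9, 212.1 and 203.6 scaled TPM with carnosine, with a log2 fold change against WT CNTL of 0.16 (adjusted p = 0.152 in limma), and 0.18 without carnosine. Glo1 was at 73.0, 77.0, 78.0, 72.8 and 72.2, with 0.13 (adjusted p = 0.110) and 0.06 without. Akr1b3 and Glo1 lay above every WT CNTL mouse. Aldh9a1 was at 20.3, 16.3, 18.3, 20.5 and 21.2, below every WT CNTL mouse, with -0.39 (SE 0.11, adjusted p = 0.0892) and -0.37 without. These 3 enzymes were without overlap, where 3.26% of genes were. Aldh7a1 had -0.19 (adjusted p = 0.144) and -0.15 without. When single mice were left out, Aldh9a1 was called here without GPx4+/- HFHS replicate 4, which enters through the shared estimate of spread (adjusted p = 0.0425).

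Around the 10 enzymes stand others that make, share or finish the same reactions, listed by function. Of 56 tested among 75 listed, 8 were called for diet over both genotypes, 4 higher and 4 lower, where 8.33% of all genes were called. In GPx4+/- 2 of the 56 were called, where 3.34% of genes were, and none was called in WT (1.19% of genes), by genotype or with carnosine. Among 10 further aldehyde dehydrogenases tested of 15 listed, Aldh6a1, the mitochondrial methylmalonate semialdehyde dehydrogenase at 78.1 scaled TPM, fell (log2 fold change -0.22, SE 0.046, limma adjusted p = 0.00606). Aldh5a1, the succinate semialdehyde dehydrogenase, fell as well (-0.20, SE 0.052, adjusted p = 0.0198). Aldh1a2, a retinal dehydrogenase at 1.43 scaled TPM, rose (0.53, SE 0.16, adjusted p = 0.0436). Aldh4a1, at 56.4 scaled TPM, had -0.08 (adjusted p = 0.331). The median of the 10 was -0.05.

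Of 14 further reductases tested of 19, Dhrs4, a peroxisomal carbonyl reductase, rose (0.26, SE 0.053, limma adjusted p = 0.00456). Dcxr, which reduces L-xylulose and diacetyl, fell over both genotypes (-0.32, SE 0.075, adjusted p = 0.0110) and in GPx4+/- (-0.41, SE 0.11, adjusted p = 0.0424). Ptgr2, the highest at 123.0 scaled TPM, had 0.01 (adjusted p = 0.896), and the median of the 14 was 0.02. The other alcohol dehydrogenase and formaldehyde genes had none called of 2 tested of 6, with Esd at 0.03 (adjusted p = 0.669) and Adhfe1 at -0.12 (adjusted p = 0.117).

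Among the 6 genes of methylglyoxal and glycation repair, Park7 (DJ-1, for which a deglycase or glyoxalase activity has been described) rose and the other 5 did not pass. In WT it was at 161.4, 165.1, 161.4, 160.2 and 160.1 scaled TPM on CNTL and at 183.4, 166.3, 175.0, 178.9 and 181.4 on HFHS. GPx4+/- mice had 133.0, 163.9, 130.5, 154.0 and 153.7 on CNTL and 189.2, 178.8, 168.6, 175.8 and 177.7 on HFHS. The diet groups of Park7 did not overlap in either genotype. Its log2 fold change was 0.20 over both (SE 0.038, limma adjusted p = 0.00253), 0.28 in GPx4+/- (SE 0.054, adjusted p = 0.00731) and 0.13 in WT (adjusted p = 0.238). Hagh, which follows Glo1 in the pathway, stood at 51.4 scaled TPM with -0.03 (adjusted p = 0.827). The median of the 6 was 0.01.

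For 4-hydroxynonenal conjugation and export, 1 of 6 genes was called: Aox1, an aldehyde oxidase, rose (0.36, SE 0.094, limma adjusted p = 0.0205). The glutathione transferases Gstm1 and Gstp1, at 223.7 and 85.3 scaled TPM, had 0.10 (adjusted p = 0.268) and -0.12 (adjusted p = 0.0891), and the list's median was 0.09. Of 11 genes tested of 14 that give rise to aldehydes, Acsl4, which loads polyunsaturated fatty acids for phospholipids, fell (-0.21, SE 0.061, adjusted p = 0.0360). Maob and Sat1, the highest of that list at 33.7 and 16.8 scaled TPM, had 0.21 (adjusted p = 0.323) and -0.01 (adjusted p = 0.944), and the median was 0.04. None was called of 7 tested of 9 pathway partners, whose median was -0.04. These include Sord, which oxidises the sorbitol made by aldose reductase, at 112.3 scaled TPM with -0.07 (adjusted p = 0.489), and Phyh, a peroxisomal phytanoyl-CoA hydroxylase, at 395.8 with -0.04 (adjusted p = 0.633).

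**Figure D5:**
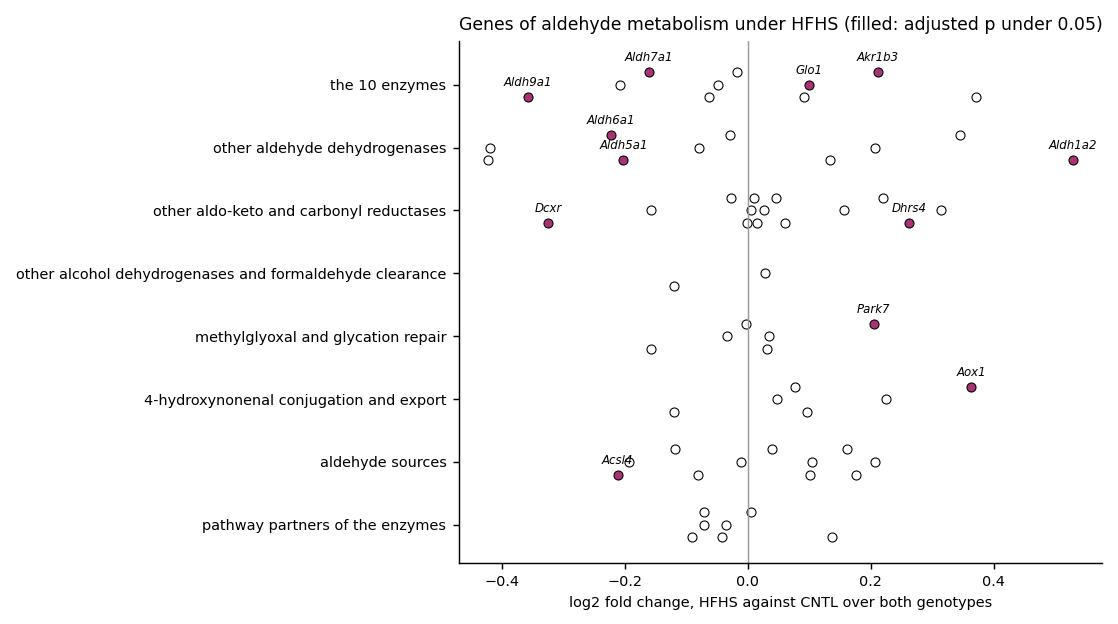
Log2 fold change of HFHS against CNTL over both genotypes for every tested gene of the 10 enzymes and of the 7 related lists, 1 point per gene, with genes of adjusted p under 0.05 filled and named. The calls are 2 higher and 2 lower among the 10 enzymes and 4 higher and 4 lower among the related genes, from Aldh1a2 at 0.53 to Aldh9a1 at -0.36.

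The genes whose levels followed each of 9 enzymes most closely from mouse to mouse were found by Pearson's r of log2 levels centred on the group means, over 25 mice that share tissue, sequencing and scaling. The values are a description. For Aldh2 they were Gstm1 (0.915) and Lzts3 (0.903), for Aldh1a1 Fmo2 (0.909) and Gsta3 (0.895), and for Adh1 Sult1a1 (0.925) and Rhobtb1 (0.879). For Akr1b3 they were Mrpl2 (0.918) and Ethe1 (0.916), for Aldh9a1 Ccnl2 (0.843) and Hnrnpl (0.837), and for Aldh3a2 Cyb5a and Slc9a3r1, both at 0.806. Aldh7a1 went with Oat (0.775) and Cyb5a (0.745), Adh5 with Phb (0.785) and Parl (0.772), and Akr1a1 with Arpc1a (0.764) and Fam181b (0.757). Among the 45 pairs of the 10 enzymes, r was highest between Aldh1a1 and Adh1 (0.736), Aldh3a2 and Aldh7a1 (0.652), Aldh3a2 and Adh1 (0.637), Aldh2 and Adh1 (0.611) and Aldh2 and Aldh1a1 (0.608). Aldh9a1 had an r below 0 with each of the other 9, from -0.0264 with Adh1 to -0.384 with Glo1.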

How the data were processed

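Transcript TPM were deposited by the authors for 25 libraries (mouse build GRCm38, with kallisto 0.43.1 and sleuth 0.30.0 in the submitters' processing notes; the study's methods describe STAR alignment and a test of gene counts). TPM are not counts, so limma 3.58.1 in R 4.3.3 was used instead. Table columns were matched by library name in the header. The labels also give column positions, which matched the header for 0 libraries. Gpx4 was lower in every GPx4+/- library so matched, which checks the genotype but not the diet or carnosine of a library. Of 119215 transcripts, 116772 matched GENCODE M21 and 2443 did not. The matched transcripts were summed by gene identifier and scaled by median ratios over 11879 genes (factors 0.865 to 1.16). The scaled sums were tested as log2(scaled TPM + 0.5), so fold changes of low genes are understated, for 11983 genes with a mean of at least 1. Diet and genotype were fitted over 4 groups (20 mice), carnosine over 10 mice, and carnosine on HFHS against WT CNTL over 25, with a mean-variance trend and Benjamini-Hochberg adjustment over all genes and a threshold of 0.05. The number of mice limits the precision, since TPM hold no depth. Transcripts (23317) were tested likewise and leading shares by exact permutation. Copies of the enzymes were sought with BLAST+ 2.17.0, and tables were handled in Python 3.11.15 with pandas 2.3.3 and SciPy 1.17.1. The code was tested on simulated data. The 10 enzymes, gene lists and markers were chosen with earlier results of these data known. Genes named are the 10 enzymes, Gpx4, called genes of each list, the 2 highest of each list, the 2 most alike in pattern (not reported here for Glo1), and markers that moved.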

Additional observations from a re-analysis of the deposited data

Results flagged for a closer look

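Each of 70 levels (the 10 enzymes, their sum, Gpx4, Aldh9a1-201 and Aldh9a1-203, in each group of 5 mice) was checked for a mouse far from the rest of its group, by Dixon's ratio of gap to range with a critical value of 0.71. Chance gives about 1 in 20 groups, and 2 of the 70 were found. Aldh1a1 in WT CNTL replicate 3 was at 39.6 scaled TPM, where the other 4 mice lay at 14.6 to 20.0 (gap over range 0.786). The same mouse had an atrial marker sum of 4561 scaled TPM, and their relation was not tested. Aldh9a1 in GPx4+/- CNTL replicate 3 was at 30.6 scaled TPM, where the other 4 lay at 23.3 to 24.1 (gap over range 0.9).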

How the results depend on the processing

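Of 2690 fold changes of the 10 enzymes recomputed under the alternatives, 2663 kept their side of the threshold, 14 lost a call and 13 gained one. As reported, only 4 were called over both genotypes and 1 in GPx4+/-, so most of the 2663 were uncalled in both fits. Of called values 0 changed sign, while 172 of those not called did. Over both genotypes, the number of enzymes called for diet was 4, with 2 for TPM as deposited (Akr1b3 and Glo1 lost), 1 for transcripts tested singly and 4 to 5 when any mouse was left out. In GPx4+/- it was 1, with 2 without a filter on low values, 2 at a minimum of 5 scaled TPM, 2 with all 25 mice in the fit, 0 with the 2 groups alone (Akr1b3 adjusted p = 0.0871, limma) and 0 to 2 with a mouse left out. In WT it was 0, with 1 (Aldh1a1) without the 5 mice of high atrial markers and 0 with any 1 mouse left out. For carnosine on HFHS against WT CNTL it was 0, with 2 under array weights (Aldh7a1 adjusted p = 0.0485, Glo1 0.0391) and 0 to 1 with a mouse left out. Where no value shows the cause of a changed call, the cause was not tested.

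Of the related enzymes, 0 were called in WT, with 6 under array weights, 1 without the 5 mice and 0 to 2 with a mouse left out. In GPx4+/- 2 were called, with 1 without a filter, 1 without the 5 mice, 1 for transcripts tested singly, 0 with the 2 groups alone and 1 to 3 with a mouse left out. Over both genotypes 8 were called, with 5 without a filter and 6 to 9 with a mouse left out, and 3 against WT CNTL with carnosine under array weights, against 0. Of the cell type markers, 0 were called in WT (1 under array weights, 2 without the 5 mice, 0 to 2 with a mouse left out), 0 in GPx4+/- (1 with TPM as deposited, 0 to 1) and 3 over both (0 without a filter, 5 under array weights, 7 without the 5 mice, 0 for transcripts, 0 to 5). With carnosine against WT CNTL there were 0 (1 under quantile normalization, 2 under array weights, 0 to 1). The summed level of the 10 enzymes in GPx4+/- was 833 scaled TPM on CNTL and 846 on HFHS, but 868.9 and 819 TPM as deposited, so the order of the diets turned. The WT sum was 873 on HFHS and 850 with carnosine, and 890 and 822 as deposited.

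Over all genes, the calls for diet in WT went from 142 to 43 without a filter, 38 as deposited, 405 under array weights, 74 with the 2 groups alone, 46 transcripts and 36 to 202 with a mouse left out. In GPx4+/- they went from 400 to 235 without a filter, 124 with the 2 groups alone, 216 transcripts and 191 to 484. With carnosine against WT CNTL they went from 141 to 55 without a filter, 75 as deposited, 398 under array weights, 28 with the 2 groups alone, 46 without the 5 mice, 47 transcripts and 53 to 249. By genotype they went from 6 on CNTL to 3 transcripts, and from 7 over both diets to 4 at a minimum of 5. A filter and the number of mice change what enters each test.

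Replicate numbers did not pair mice: deviations of same-numbered mice had a median correlation of -0.00465 over 50 pairs (-0.341 to 0.232) and of differently numbered mice 0.0236 over 200. With the replicate block, the number of the 10 enzymes called stayed at 4 over both genotypes, 1 related enzyme was called in GPx4+/- and 1 marker over both genotypes, and all genes called numbered 68 in WT and 76 for carnosine against WT CNTL. TPM without read counts give no depth, so the precision of single low values is unknown, and 5 mice a group leave the intervals given above.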
